A study of Mus musculus with 8 samples.

Results

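The neuregulin and ErbB receptor system of the mouse heart ventricle was followed through 8 genes, the ligands Nrg1, Nrg2, Nrg4 and Hbegf and the receptors Erbb2, Erbb3, Erbb4 and Egfr. They were chosen by name as ligands and receptors of 1 signalling family, out of 22909 genes with a symbol on the array, and every probe whose RefSeq accession belonged to 1 of them was used, which gave 16 probes. RNA was measured on 8 single-colour Agilent arrays. Wild-type mice (WT) were compared with knock-in mice homozygous for TNNT2ΔK210 (KI), in which lysine 210 of cardiac troponin T, a thin-filament protein of heart muscle, is deleted. The knock-in, a model of neonatal dilated cardiomyopathy, alters the animal's own Tnnt2 gene. Each genotype was sampled at birth (0 day) and at the age of 1 week, which makes 4 groups of 2 arrays. Each RNA was pooled from 3 ventricular samples; the series text names the left ventricle, the sample labels the ventricle. Whether a group's 2 arrays were made from different pools is not in the labels, and errors and p-values therefore measure a spread between arrays that may be technical.

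The 1-week arrays have 2 records, which disagree. By the deposited scanner files, arrays A and B were WT replicates 1 and 2 and arrays C and D were KI replicates 1 and 2. By the columns of the deposited value table, which hold the same signals, arrays A and D were WT replicates 1 and 2 and arrays B and C were KI replicates 1 and 2. Results follow the value-table record, with the scanner-file record beside them where it matters; the 4 birth arrays have the same sample in both. Row 1 of the slide carried the birth arrays and row 2 the 1-week arrays, and age cannot be told apart from row. Within row 1, WT occupied columns 1 and 2 and KI columns 3 and 4; genotype at birth cannot be told apart from column.

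A level is the log2 of a probe's processed signal minus that of the array's 75th percentile over non-control probes, so that 0 is the percentile itself. That percentile lay between 342 and 523 signal units, with array D the lowest. The scanner software flagged 58.9% to 63.1% of the probes of an array as well above background. The scanner software marked KI birth replicate 1 for evaluation and the other arrays as in range. Tnnt2 lay between 7.77 and 8.33 on the 8 arrays; where its probe lies relative to the deleted codon is not given in the sources used here, so it checks no label. All 7 cardiomyocyte markers were well above background on every array, whereas 1 or 2 of 5 epithelial and 3 of 6 lymphocyte markers were.

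Neuregulins and the EGF-like growth factors are made as membrane-bound precursors, shed by metalloproteases, and bind receptor tyrosine kinases of the ErbB family, which pair, phosphorylate each other and signal through the MAPK and PI3K pathways. In the heart, Nrg1 comes mainly from endocardial and endothelial cells and acts on neighbouring cardiomyocytes through Erbb4 paired with Erbb2, a receptor that binds no ligand of its own. The system is required for the trabeculae of the embryonic ventricle, takes part in cardiomyocyte growth and division around birth, and mice that lose Erbb2 in heart muscle develop dilated cardiomyopathy.

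Of the 16 probes, 7 were well above background on all 8 arrays and 4 on none. Tests were run on the 12 probes for which some group had both of its arrays above background, and these covered 6 genes: Nrg1 with 3 probes, Nrg2 with 1, Nrg4 with 2, Hbegf with 1, Egfr with 3 and Erbb2 with 2. Erbb3 and Erbb4, the receptors that bind neuregulins directly, were not well above background on any array. Their single probes, A_55_P2119897 for Erbb3 and A_52_P256090 for Erbb4, gave processed signals of at most 11.0 and 9.3. The lowest signal flagged as well above background was between 12.4 and 17.2, depending on the array. The levels of Erbb3 and Erbb4 were therefore not measurable with these probes, and no difference between groups is given for them. One further probe of Nrg2 and 1 of Nrg4 were likewise not above background on any array. In bulk tissue, fewer cells of a type and less RNA per cell cannot be told apart.

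**Figure D1:**
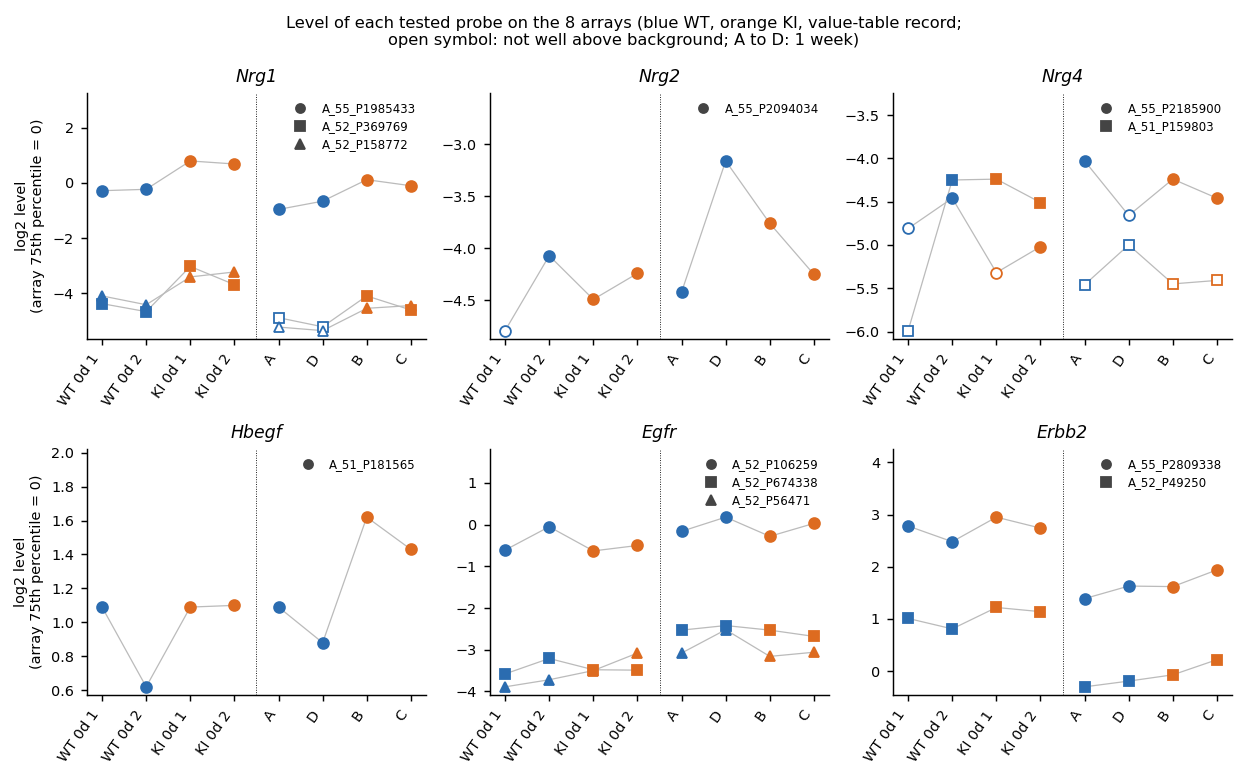
Log2 level (y axis, 0 is the array's 75th percentile) of the 12 tested probes on the 8 arrays (x axis), 1 panel a gene and 1 symbol shape a probe, coloured by genotype in the value-table record. All 3 Nrg1 probes were higher on the KI than on the WT arrays of each age, and both Erbb2 probes were lower on each 1-week array than on each birth array.

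The RefSeq promoter table (GRCm38.p6, windows of 300 bases that span a gene's start) held Erbb2, Egfr, Nrg4 and Erbb4 of the 8 genes. Both receptors whose probes changed with age in opposite directions are shown, each on the plus strand. Capitals mark matches, on either strand, to the GC box (GGGCGG), the TATA box (TATAAA), the canonical E-box (CACGTG), the CCAAT box (CCAAT) and the cyclic AMP response element core (TGACG), which do not overlap here.
Erbb2, chr11:98412234-98412533: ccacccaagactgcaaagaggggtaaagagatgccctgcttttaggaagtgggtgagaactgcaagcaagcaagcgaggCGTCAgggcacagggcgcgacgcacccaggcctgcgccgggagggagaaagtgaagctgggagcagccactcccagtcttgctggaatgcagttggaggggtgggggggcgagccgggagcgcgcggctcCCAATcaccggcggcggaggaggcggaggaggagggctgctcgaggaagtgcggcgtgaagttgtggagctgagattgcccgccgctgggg
Egfr, chr11:16751953-16752252: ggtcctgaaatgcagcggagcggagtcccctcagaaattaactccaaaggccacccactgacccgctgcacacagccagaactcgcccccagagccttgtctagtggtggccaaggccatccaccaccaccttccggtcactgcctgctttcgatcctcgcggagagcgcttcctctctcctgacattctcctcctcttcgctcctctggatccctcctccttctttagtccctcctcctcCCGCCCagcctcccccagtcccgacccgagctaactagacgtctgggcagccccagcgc
The Erbb2 window held 1 CCAAT box and 1 TGACG core, and 37.4% and 20.8% of all 32851 promoters of this length held these. The Egfr window held 1 GC box, as 35.7% of promoters did. A TATA box, held by 13.6% of promoters, and an E-box, held by 7.15%, were in neither window. The windows were rich in bases G and C, at 66.0% for Erbb2 and 62.3% for Egfr, with 21 and 15 CG pairs. These matches describe the letters of the windows only.

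Nrg1, the founding neuregulin and the main cardiac ligand of this family, showed the largest genotype differences of the 6 tested genes in the value-table record, with KI above WT. Its brightest probe, A_55_P1985433, read -0.28 and -0.23 on the WT birth arrays and 0.80 and 0.69 on the KI birth arrays. Both KI arrays lay above both WT arrays, and the SD within a group was 0.03 in WT and 0.07 in KI. The difference was 1.00 ± 0.17 on the log2 scale (limma standard error), which is 2.00-fold. It was not past the threshold of 0.05 after Benjamini-Hochberg adjustment of limma's test over 35343 probes (adjusted p = 0.453).

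The other 2 Nrg1 probes lay near background but had the same order at birth. Probe A_52_P369769 read -4.38 and -4.67 in WT and -3.03 and -3.69 in KI, a difference of 1.17 ± 0.28 (adjusted p = 0.798). Probe A_52_P158772, designed to another Nrg1 transcript record, read -4.10 and -4.42 in WT and -3.41 and -3.23 in KI, a difference of 0.94 ± 0.17 (adjusted p = 0.522). Normexp background correction left 0.29 and 0.32 of these differences, against 0.87 on the brightest probe. The 3 probes report on 1 gene in the same RNA and are not independent replicates.

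At 1 week the brightest probe read -0.96 on array A, 0.12 on array B, -0.10 on array C and -0.66 on array D. Arrays B and C, KI in the value-table record, both lay above arrays A and D, WT in that record. The KI minus WT difference was 0.82 ± 0.17, or 1.76-fold (adjusted p = 0.479). With the samples of the scanner files the same levels gave 0.04 ± 0.35 (95% interval -0.78 to 0.86, adjusted p = 0.981), since each genotype then held 1 of the higher and 1 of the lower arrays.

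The dim Nrg1 probes split the 1-week arrays in the same way. Probe A_52_P369769 read -4.89, -4.10, -4.61 and -5.22 on arrays A to D, and probe A_52_P158772 read -5.23, -4.55, -4.45 and -5.36. On arrays A and D neither was well above background, so WT has only a bound at 1 week. KI was at least 1.33-fold higher by A_52_P369769 (fitted difference 0.70, adjusted p = 0.745) and at least 1.20-fold higher by A_52_P158772 (0.79, adjusted p = 0.515). Such a bound sets the mean level of the bright group against the lowest signal well above background on each dim array. The scanner-file record gave -0.42 and -0.02 for these probes, and normexp correction 0.01 and -0.04.

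Taken over both ages, a comparison added after the data were seen, KI exceeded WT by 0.91 ± 0.12 on the brightest Nrg1 probe (adjusted p = 0.154), and all 4 KI arrays lay above all 4 WT arrays. The dimmer probes gave 0.94 ± 0.20 (adjusted p = 0.440) and 0.87 ± 0.12 (adjusted p = 0.186), with overlap between the genotypes. They rest on values at background for 2 of the 4 WT arrays, and normexp correction left 0.15 and 0.14. No probe of the 12 passed the threshold there, where 0.0311% of all probes did. An unadjusted p under 0.05 was found for 5 of 12, against 4.92% of all probes. These 5 were the probes of Nrg1, Hbegf and Erbb2 A_52_P49250. In the scanner-file record none of these 5 had one, while Nrg4 A_55_P2185900 and Egfr A_52_P56471 did. Since the comparison followed a look at the data, the count is a description only. The adjusted p of the brightest probe crossed the threshold under normexp background correction (difference 0.77, adjusted p = 0.0376) and without WT 1-week replicate 2, array D (0.98, adjusted p = 0.0387), and was 0.608 in the scanner-file record. The interaction of age and genotype for the brightest probe was -0.18 ± 0.23 (95% interval -0.74 to 0.37), which did not pass the threshold. In the scanner-file record it was -0.96 ± 0.49 (95% interval -2.12 to 0.20), and the dimmer probes gave -1.59 ± 0.50 and -0.96 ± 0.48. None of these passed the threshold either, but the size of the interaction depended on the record.

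Counts over the members are read against all probes. No member probe passed the threshold for genotype at birth (limma; 0.00566% of all probes did) or at 1 week (0.0141%, and 0.00847% in the scanner-file record). At an unadjusted p under 0.05, 3 of 12 member probes differed at birth against 3.92% of all probes, and 4 of 12 at 1 week against 6.34%. The 3 at birth were the probes of Nrg1, and the 4 at 1 week were these and Hbegf. Probes of the same gene are not independent, so these counts do not speak for the family. In the scanner-file record at 1 week 0 of 12 did, against 11.2%. With 2 arrays a side, KI arrays lay above WT arrays without overlap for 19.0% of all probes at birth and 15.8% at 1 week. They did so at both ages for 2.78%. Of the 12 member probes, 4 did so at both ages in the value-table record, the 3 of Nrg1 and 1 of Erbb2. In the scanner-file record these 4 overlapped between genotypes at 1 week, and only Egfr A_52_P56471 was higher in KI at both ages. No interaction of age and genotype passed the threshold for any member, or for any probe (0%); 1 of 12 member probes had an unadjusted p under 0.05, against 5.18% of all probes.

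**Figure D2:**
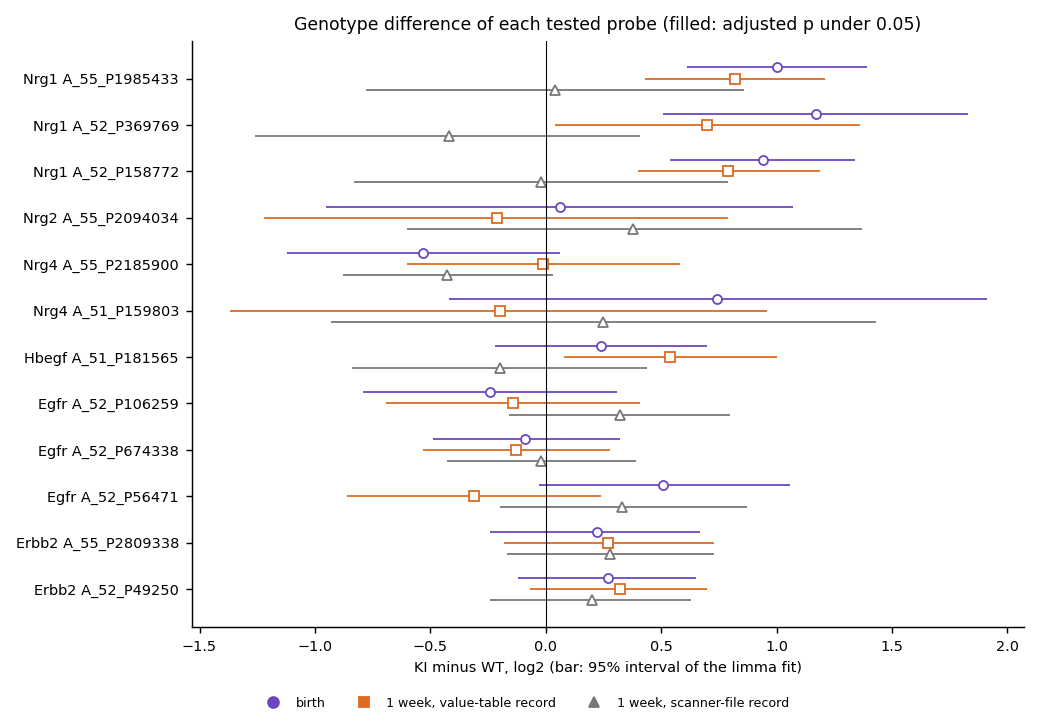
KI minus WT difference on the log2 scale (x axis) of the 12 tested probes (y axis), at birth and at 1 week in both records of the 1-week arrays; bars are 95% intervals of the limma fit and open symbols did not pass the threshold. The Nrg1 intervals at birth exclude 0, and those at 1 week exclude 0 in the value-table record and include it in the scanner-file record.

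Other genes moved with the same arrays. Myh7, the slow myosin heavy chain of fetal and stressed ventricle, read between 9.44 and 9.52 on the birth arrays and 4.61, 7.12, 7.28 and 4.54 on arrays A to D, so it too was higher on arrays B and C than on arrays A and D. Array A stood apart from arrays B to D in several atrial and fat cell markers. The summed signal of 7 atrial genes, in multiples of the 75th percentile, was 67.9 on array A, between 409 and 483 on arrays B to D, and between 438 and 585 at birth; 6 or 7 of the 7 were well above background on every array. Sln, sarcolipin of atrial muscle, read -1.06 on array A and between 3.78 and 5.03 on arrays B to D.

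Of 7 adipocyte markers, all were well above background on arrays B, C and D and 3 on each of the other 5 arrays. Ucp1, the uncoupling protein of brown fat, read 0.52, 1.23 and 2.40 on arrays B, C and D and was not well above background elsewhere. Adipoq, Plin1 and Cfd, genes of fat cells, were likewise above background on those 3 arrays only. The adipocyte sum ranged from 177 to 253 at 1 week and from 173 to 199 at birth. Most of it came from Fabp4, which read 7.21 to 7.76 at 1 week and 7.25 to 7.49 at birth. The sum therefore says little about Ucp1, Adipoq, Plin1 and Cfd. Between 6 and 8 of 9 Schwann cell markers were above background. The Schwann sum was 2.29 on array A and 2.97 to 3.39 on arrays B to D. The part of these cell types in the 1-week differences was not tested.

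Endocardial and endothelial cells are the main source of Nrg1 in the heart, and their markers were summed in the same way. The summed signal of 4 endocardial markers was 3.28, 3.17, 3.28 and 5.75 on arrays A to D, and that of 7 endothelial markers was 178, 164, 190 and 228. At birth the endocardial sum was 6.33 and 6.37 in WT and 4.99 and 5.12 in KI, and the endothelial sum lay between 125 and 132. All markers of both lists were well above background on every array, and the part of these cells in the Nrg1 differences was not tested.

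**Figure D3:**
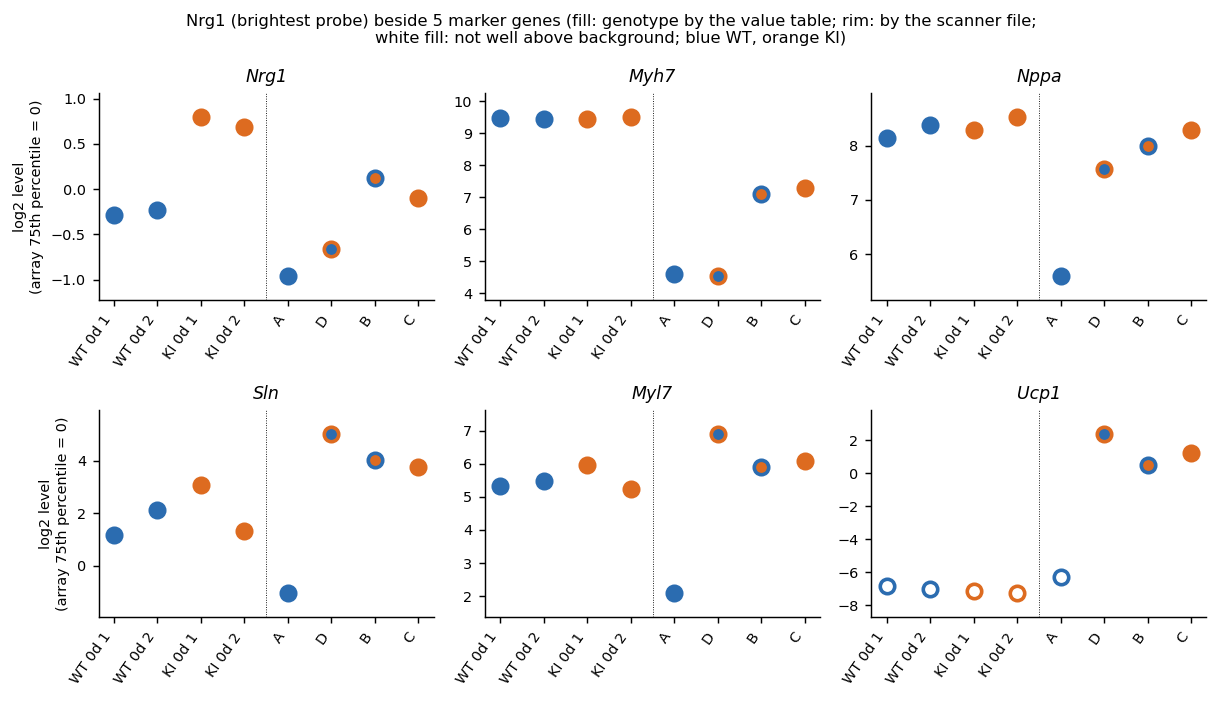
Log2 level (y axis) on each array (x axis) of Nrg1 and of Myh7, Nppa, Sln, Myl7 and Ucp1; the fill gives the genotype by the value table, the rim that by the scanner file, and a white fill a probe not well above background. Nrg1, Myh7 and Nppa are higher on arrays B and C than on A and D. Nppa is lowest on array A, and Sln, Myl7 and Ucp1 set array A apart from arrays B, C and D.

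Hbegf, a heparin-binding ligand of Egfr and Erbb4, read 1.09 and 0.62 in WT and 1.09 and 1.10 in KI at birth, where the genotypes overlapped (0.24 ± 0.20, adjusted p = 1.00). At 1 week it read 1.09, 1.62, 1.43 and 0.88 on arrays A to D. The KI arrays of the value-table record lay above the WT arrays, by 0.54 ± 0.20 (adjusted p = 0.745), and the scanner-file record gave -0.20 ± 0.27. Arrays B and C thus lay above arrays A and D for Hbegf, as for the 3 Nrg1 probes.

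Nrg2, a neuregulin best known from the nervous system, was measured near background by probe A_55_P2094034, which was well above it on 7 of 8 arrays. It read -4.42, -3.76, -4.25 and -3.16 on arrays A to D, -4.79 and -4.07 in WT at birth and -4.49 and -4.24 in KI at birth. The SD within a group reached 0.89 (WT at 1 week, 2 arrays), and the genotypes overlapped at each age. The genotype differences were 0.06 ± 0.43 at birth and -0.21 ± 0.43 at 1 week, and their 95% intervals, -0.95 to 1.07 and -1.22 to 0.79, each include a 2-fold difference in 1 direction.

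Nrg4, a ligand of Erbb4 that is known as a secreted factor of brown fat, was also near background. Its brighter probe, A_55_P2185900, was well above background on 5 of 8 arrays and read -4.03, -4.24, -4.46 and -4.66 on arrays A to D, against -4.81 and -4.46 for WT and -5.32 and -5.02 for KI of the birth groups. The KI birth arrays lay below the WT birth arrays, by -0.53 ± 0.25 (adjusted p = 1.00), while the genotypes overlapped at 1 week (-0.01 ± 0.25; scanner-file record -0.43 ± 0.19, adjusted p = 0.473). Probe A_51_P159803 was above background on 3 arrays, all at birth, and read -5.99 and -4.25 in WT and -4.24 and -4.51 in KI, a difference of 0.74 ± 0.50 opposite in sign to that of the brighter probe. The probes thus disagreed at birth, and neither difference passed the threshold.

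Erbb2, the shared co-receptor, differed little between genotypes. At birth probe A_55_P2809338 read 2.78 and 2.48 in WT and 2.95 and 2.74 in KI, where the groups overlapped (0.22 ± 0.19, 95% interval -0.24 to 0.67). On arrays A to D it read 1.39, 1.62, 1.94 and 1.63, and KI minus WT was 0.27 ± 0.19 (-0.18 to 0.73), or 0.28 ± 0.19 in the scanner-file record. Probe A_52_P49250 gave 0.27 ± 0.16 at birth and 0.32 ± 0.16 at 1 week, with KI above WT on all arrays of each age. No Erbb2 difference between genotypes passed the threshold (adjusted p = 1.00 at birth for both probes, 0.756 and 0.745 at 1 week). The upper ends of the intervals, 0.67 and 0.73, are below a doubling.

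Egfr, the receptor of EGF, Hbegf and betacellulin, showed no genotype difference past the threshold on any of its 3 probes. At birth they gave -0.24 ± 0.23, -0.09 ± 0.17 and 0.51 ± 0.23, and at 1 week -0.14 ± 0.23, -0.13 ± 0.17 and -0.31 ± 0.23, with adjusted p from 0.760 to 1.00. The 3 thus shared a sign at 1 week only. With the samples of the scanner files the 1-week differences were 0.32 ± 0.20, -0.02 ± 0.17 and 0.33 ± 0.23. The dimmest probe, A_52_P56471, designed to another transcript record than the other 2, read -3.89 and -3.72 on the WT and -3.50 and -3.08 on the KI birth arrays, and -3.08, -3.16, -3.06 and -2.52 on arrays A to D. In the value-table record it had the 1 interaction of age and genotype among the members whose unadjusted p was under 0.05, at -0.83 ± 0.33 (limma, adjusted p = 0.876). With the samples of the scanner files it was -0.18 ± 0.32 (limma, adjusted p = 0.960). The 1 member probe under 0.05 was then Nrg1 A_52_P369769, at -1.59 ± 0.50 (limma, adjusted p = 0.796).

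Between birth and 1 week, when mouse cardiomyocytes leave the cell cycle, Erbb2, Nrg1 and 2 of the 3 Egfr probes changed. Erbb2 fell on both probes. On A_55_P2809338 the 4 birth arrays lay between 2.48 and 2.95 and the 4 arrays of 1 week between 1.39 and 1.94, without overlap. The difference over both genotypes was -1.09 ± 0.14 (adjusted p = 0.00227, exact two-sided permutation p = 0.0286, the smallest that 4 against 4 arrays can give), a 2.13-fold fall. On A_52_P49250 the birth arrays lay between 0.81 and 1.22 and the 1-week arrays between -0.30 and 0.22, a fall of 2.19-fold (-1.13 ± 0.12, adjusted p = 0.00115).

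Erbb2 fell in each genotype by about the same amount. The differences were -1.12 ± 0.19 and -1.15 ± 0.16 in WT (adjusted p = 0.0142 and 0.00785) and -1.07 ± 0.19 and -1.11 ± 0.16 in KI (adjusted p = 0.0241 and 0.0121), and the interactions were 0.06 ± 0.27 and 0.05 ± 0.23. All 4 calls also held with the samples of the scanner files, at adjusted p from 0.0145 to 0.0200. Over both genotypes both calls held under every alternative, leaving out each array included (adjusted p at most 0.0143). Within a genotype they were lost without WT birth replicate 1 (adjusted p = 0.0884 and 0.0543 in WT). In KI they were lost without KI 1-week replicate 1, KI birth replicate 1 or KI birth replicate 2 for both probes, and without KI 1-week replicate 2 or with no filter on dim probes for A_55_P2809338, at adjusted p from 0.0606 to 0.137.

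Egfr changed the other way. On probe A_52_P674338 the birth arrays lay between -3.58 and -3.21 and the 1-week arrays between -2.68 and -2.42, without overlap. The rise was 0.90 ± 0.12, or 1.86-fold (adjusted p = 0.00309, exact permutation p = 0.0286), and it was called under all 16 alternatives, though normexp correction left 0.34 of it (adjusted p = 0.0232). It was 0.92 ± 0.17 in WT and 0.88 ± 0.17 in KI (adjusted p = 0.0178 and 0.0309), and these calls were lost under normexp (0.35 and 0.34). They were also lost without WT birth replicate 1, without WT 1-week replicate 2 or with only the arrays compared in WT (adjusted p from 0.0611 to 0.105), and in KI without any 1 of its 4 arrays or with no filter (0.0721 to 0.161). Probe A_52_P56471 rose by 0.59 ± 0.16 (adjusted p = 0.0410), with overlap between the ages, and this call was lost under 9 of 16 alternatives, among them leaving out any 1 array but array A (adjusted p from 0.0536 to 0.133). In WT its rise was 1.00 ± 0.23 (adjusted p = 0.0339), and in KI its difference was 0.18 ± 0.23 (adjusted p = 0.728). With the samples of the scanner files these were 0.68 ± 0.23 (adjusted p = 0.114) in WT and 0.50 ± 0.23 (adjusted p = 0.193) in KI. The brightest Egfr probe, A_52_P106259, read -0.61 to -0.05 at birth and -0.28 to 0.18 at 1 week, a difference of 0.39 ± 0.17 that did not pass the threshold (adjusted p = 0.128).

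Nrg1 fell on its 3 probes over both genotypes, by -0.65 ± 0.12 (1.56-fold, adjusted p = 0.00932), -0.76 ± 0.20 (adjusted p = 0.0336) and -1.11 ± 0.12 (adjusted p = 0.00136). On the brightest probe the ages overlapped, because the KI arrays B and C at 1 week lay above the WT birth arrays (exact permutation p = 0.171). The estimates do not depend on the record, but the spread they are set against does. With the samples of the scanner files the first 2 calls were lost (adjusted p = 0.0977 and 0.0659) and the call of A_52_P158772 held (0.0194). On that probe each 1-week array lay below each birth array, at -5.36 to -4.45 against -4.42 to -3.23, and on both dim probes 2 of the 4 arrays of 1 week, A and D, were not well above background. Normexp correction, which raises dim signals by an offset, left -0.31 of that difference (adjusted p = 0.0526) and -0.15 of that on A_52_P369769 (adjusted p = 0.407). The call of A_52_P369769 was also lost with no filter or without any 1 of 5 arrays, which were KI 1-week replicate 2, WT 1-week replicate 2, both WT birth arrays and KI birth replicate 1 (adjusted p from 0.0627 to 0.109). Within a genotype Nrg1 was called lower at 1 week on 1 of 3 probes in WT (A_52_P158772, at least 1.42-fold, adjusted p = 0.0120; 0.291 in the scanner-file record, 0.581 under normexp and 0.0758 without WT birth replicate 1). In KI it was called on 2 of 3, A_55_P1985433 (0.0464) and A_52_P158772 (0.0111), and both calls were lost without any 1 of the 4 KI arrays (0.0528 to 0.222). The call of A_55_P1985433 was also lost without either WT birth array (0.0922 and 0.0879), with normexp (0.0554), with no filter (0.0985), with only the arrays compared (0.0542), with the replicate block (0.0685), and in the scanner-file record, where the difference was -1.13 (0.0864). That of A_52_P158772 was lost with normexp as well (-0.48, adjusted p = 0.0769). The remaining probe, A_52_P369769, was not called in KI (-0.99, adjusted p = 0.0914), but was in the scanner-file record (-1.56, adjusted p = 0.0392) and with the replicate block (0.0235).

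The other ligands did not pass the threshold for age over both genotypes. Hbegf gave 0.28 ± 0.14 (adjusted p = 0.179) and Nrg2 0.50 ± 0.30 (0.262). The brighter Nrg4 probe, well above background on 5 arrays, gave 0.55 ± 0.18 (0.0624), which passed in the scanner-file record (0.0274). Without WT 1-week replicate 2, array D, the difference was 0.71. The difference stayed short of the threshold under 14 of its 16 alternatives, where its lowest value was 0.13. The dimmer Nrg4 probe gave -0.58 ± 0.35 (0.261).

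Age changed much of the array, so the member counts are set beside it. Over both genotypes 2 of 12 member probes were called higher, against 12.4% of all probes, and 5 of 12 lower, against 10.6%; the 7 calls came from 3 genes. In the scanner-file record 3 were called higher (12.6% of all probes) and 3 lower (11.5%). In WT 2 were higher (8.19%) and 3 lower (5.47%), and in KI 1 was higher (3.34%) and 4 lower (2.91%). Each 1-week array lay above each birth array for 15.1% of all probes and below for 16.5%; among the members this held for 1 and 3 probes. Scaling to the median in place of the 75th percentile turned the balance of all calls over both genotypes from 4380 higher and 3744 lower to 3378 and 4363, and in WT from 2894 and 1934 to 1944 and 2617, where the median of all probes moved from 0.02 to -0.14. No called member changed its sign under it.

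**Figure D4:**
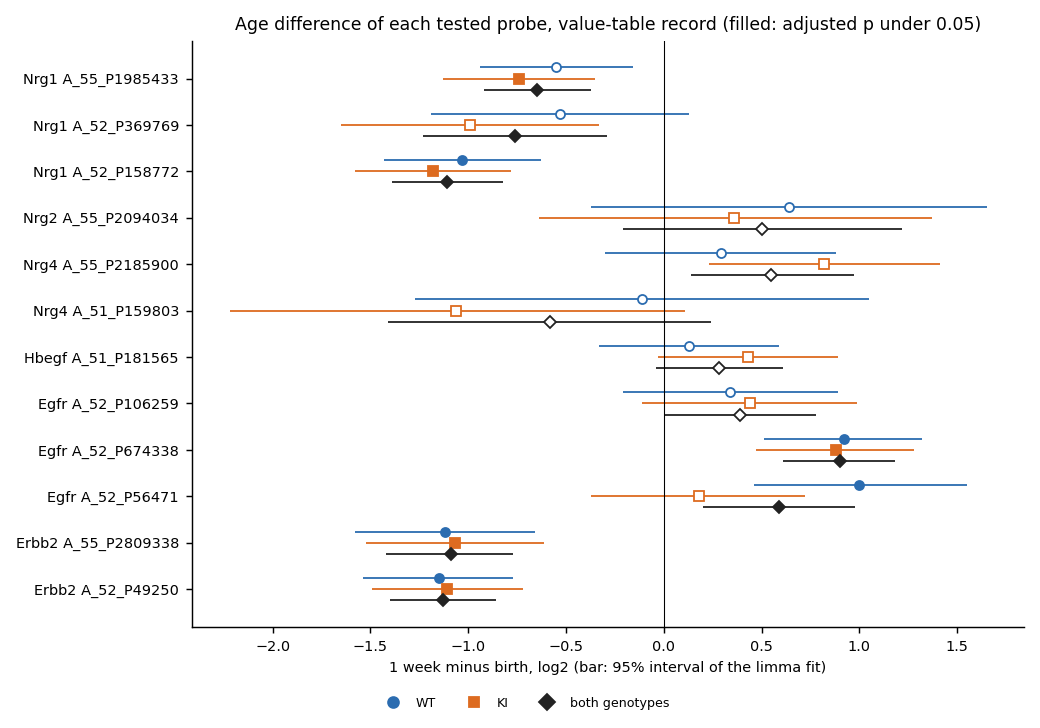
1 week minus birth difference on the log2 scale (x axis) of the 12 tested probes (y axis), in WT, in KI and over both genotypes, in the value-table record; bars are 95% intervals of the limma fit and filled symbols passed the threshold. Both Erbb2 probes sit near -1.1 in both genotypes, Egfr A_52_P674338 near 0.9, and the 3 Nrg1 probes below 0.

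Cell type markers moved with age as well. The summed signal of 7 cardiomyocyte markers was 2549 to 2754 at birth and 2108 to 2182 at 1 week. This fall was that of Myh7, which read 9.44 to 9.52 at birth and 4.54 to 7.28 at 1 week. No other marker of the list was lower on each 1-week array than on each birth array. Myh6, Tnni3, Actn2, Ryr2 and Myl2 overlapped between the ages, and Myl3 was higher at 1 week. The summed signal of 6 fibroblast markers was 108 to 135 at birth and 213 to 279 at 1 week. That of 5 mural cell markers was 23.4 to 26.9 at birth and at least 44.0 at 1 week. The endothelial sum was 125 to 132 at birth and 164 to 228 at 1 week, and that of 6 macrophage markers 8.04 to 9.87 and 12.9 to 17.0. The endocardial sum was 4.99 to 6.37 and 3.17 to 5.75, and that of 6 epicardial markers 8.94 to 10.6 and 8.33 to 10.1, each with overlap between the ages. All markers of these 7 lists were well above background on every array. A sum follows its brightest markers. Tcf21, a fibroblast marker, went the other way, at 0.83 to 0.98 at birth and 0.43 to 0.74 at 1 week. Postn, Emcn, Cspg4 and C1qa overlapped between the ages. The other fibroblast, mural, endothelial and macrophage markers were higher on each 1-week array than on each birth array. Of the endocardial markers Npr3 and Tmem108 were lower on each 1-week array, Nfatc1 was higher and Cytl1 overlapped. The part of the cell makeup in the age differences of Erbb2, Egfr and Nrg1 was not tested.

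The wider pathway was described through lists of genes chosen for their known roles, each gene by its brightest tested probe. Genotype changed none of them past the threshold at either age, where 0.00635% of all 15746 genes tested did so at birth and 0.0254% at 1 week. Of 17 early response targets tested, 10 had a positive KI minus WT difference at birth and 4 at 1 week, with medians of 0.02 and -0.19 against 0.00 and 0.03 over all genes. The smallest p among them was that of Phlda1, an immediate early gene, at birth (0.56 ± 0.18, limma adjusted p = 1) and that of Jun, a subunit of the AP-1 transcription factor, at 1 week (-0.57 ± 0.20, limma adjusted p = 0.745). With the samples of the scanner files Jun gave 0.21 ± 0.28, the opposite sign, and 10 of the 17 targets were positive at 1 week (median 0.09). Of 27 feedback inhibitors, 21 were positive at birth and 14 at 1 week (medians 0.06 and 0.00), of 38 signal relay genes 18 and 21 (medians -0.03 and 0.03), of 14 shedding and transport genes 6 and 4 (medians -0.06 and -0.05), and of 2 other ligands 1 and 1. Over all genes the share was 50.5% at birth and 54.4% at 1 week. In the scanner-file record at 1 week, 13 feedback inhibitors, 16 relay genes, 12 shedding and transport genes and 2 other ligands were positive, against 50.8% of all genes, and none was called. These counts are descriptions and were not tested.

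Age over both genotypes changed members of each list, against 12.8% of all genes called higher and 11.9% called lower. Of the 25 calls, 24 were also made in the same direction in the scanner-file record; Adam8 was not (adjusted p = 0.0507). Only 2 of 7 other ligands were tested. Betacellulin (Btc), a ligand of Egfr and Erbb4, read between -4.01 and -3.14 at birth and between -5.20 and -4.18 at 1 week, where 2 of 4 arrays were well above background, and fell by 1.09 ± 0.23 (adjusted p = 0.0164). Egf, the epidermal growth factor, gave 0.06.

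Of 14 shedding and transport genes tested, 2 rose and 3 fell, with a median of -0.05 against -0.03 over all genes. Adam17, the protease that releases many ErbB ligands, rose from between 0.35 and 0.46 at birth to between 0.79 and 0.96 at 1 week (0.45 ± 0.10, adjusted p = 0.0187). Adam15, a related membrane protease, rose by 0.60 ± 0.14 (adjusted p = 0.0207). Timp3, an inhibitor of Adam17, fell by 0.83 ± 0.21 (adjusted p = 0.0287), Adam9 by 0.72 ± 0.14 (0.011) and Adam8 by 0.56 ± 0.13 (0.0212).

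Of 38 signal relay genes tested, 4 rose and 2 fell (median 0.05). Stat5a, a transcription factor activated downstream of Erbb4, rose from between 0.90 and 1.13 to between 1.90 and 2.19, by 0.97 ± 0.10 (adjusted p = 0.0013), in WT and in KI (adjusted p = 0.00824 and 0.0148). Pik3cb, a PI3K catalytic subunit, rose by 0.41 ± 0.10 (adjusted p = 0.0261). Gab1, a docking protein between receptor and PI3K, fell by 0.86 ± 0.17 (adjusted p = 0.0123) and Pdpk1, the kinase that activates Akt, by 0.50 ± 0.13 (0.0285).

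Of 27 feedback inhibitors tested, 3 rose and 3 fell (median 0.01). The MAPK phosphatase Dusp4 read between -2.59 and -1.61 at birth and between -4.78 and -3.25 at 1 week, where 3 of 4 arrays were above background, and fell by 2.12 ± 0.34 (adjusted p = 0.00555). Dusp5, the phosphatase of nuclear ERK, was above background on no birth array and on 3 of 4 arrays at 1 week. Its fitted rise was 1.11 ± 0.17 (adjusted p = 0.00466), a size that rests in part on signals at background. Socs5, a suppressor of cytokine and EGF receptor signalling, rose by 0.85 ± 0.16 (adjusted p = 0.0119) and Lrig3 by 0.76 ± 0.21 (0.0384). Cblb, a ubiquitin ligase for activated receptors, fell by 0.40 ± 0.10 (0.0328) and Spry2, an inhibitor of receptor tyrosine kinase signalling, by 0.35 ± 0.10 (0.0482).

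Of 17 early response targets tested, 4 rose and 3 fell (median 0.31). Myc, a driver of growth and cell division, read between 0.91 and 1.55 at birth and between -1.53 and -0.73 at 1 week, a 5.5-fold fall (-2.46 ± 0.20, adjusted p = 0.000536) that was called in WT and in KI. Egr3, an immediate early transcription factor, rose by 2.07 ± 0.22 (adjusted p = 0.00125), also in both genotypes. Jun rose by 0.80 ± 0.14 (0.00835) and Egr2 by 0.78 ± 0.19 (0.0276). The ETS factors Etv5 and Etv1, targets of MAPK signalling, fell by 0.59 ± 0.12 (0.0142) and 0.49 ± 0.11 (0.0183).

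**Figure D5:**
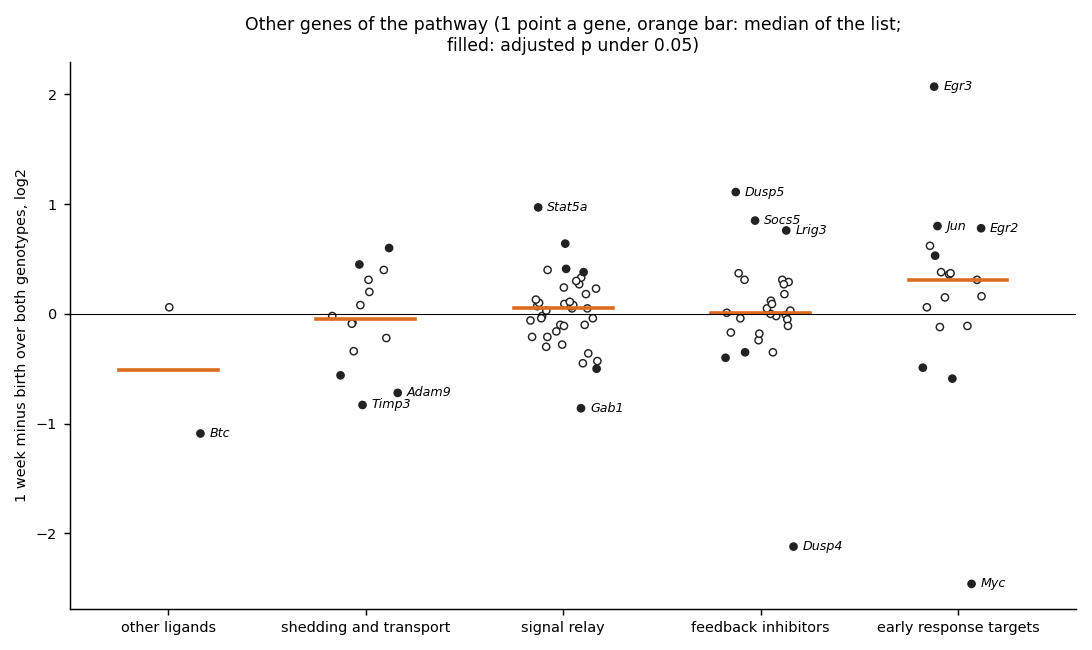
1 week minus birth difference over both genotypes on the log2 scale (y axis) of the other pathway genes, 1 point a gene, by list (x axis); filled points passed the threshold and the orange bar is the median of a list. Called genes lie on both sides of 0 in the 4 larger lists, from Myc at -2.46 to Egr3 at 2.07.

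The genes whose pattern over the 8 arrays was most like that of a member were ranked by Pearson's r among 4822 genes that, like it, spanned over 1 log2 unit. The 8 arrays share 1 slide and 2 ages, and r describes these arrays only. For Erbb2 the most alike were Tro (r = 0.996), Epb41l3 (0.994) and Ikzf4 (0.992). For Nrg1 they were Sost (0.965), Prkar1b (0.962) and Irx3 (0.955). Irx3, a homeobox factor, read 2.36, 3.14, 3.04 and 2.24 on arrays A to D, 2.82 and 2.87 in WT at birth and 3.48 and 3.36 in KI at birth, an order that its choice for likeness to Nrg1 brings with it. For Nrg4 they were Twf2 (0.961), Glis1 (0.952) and Asb10 (0.946), and for Nrg2 Gm10069 (0.935), Fam205a2 (0.935) and Gm7337 (0.933). The brightest probes of Hbegf and Egfr spanned 0.999 and 0.810 and were not ranked.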

How the data were processed

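The members and gene lists were chosen with earlier results of these data known. Per the file headers, the deposited scanner files hold the processed intensity of each spot on a linear scale, corrected within the array by Agilent Feature Extraction 11.0.1.1 (the submitters' processing notes give 9.1), with no normalization between arrays; the deposited flags (other) are coded 0 and 1. For probes with 1 spot, the deposited value table held the same intensities (relative tolerance 0.0001), but in 3 of the 4 columns for 1 week those of another sample's scanner file. Spots of a probe were averaged without outlier spots, giving 56590 probes, 32988 of them named through RefSeq accessions (GRCm38.p6; the files name mm9). Log2 signals minus the 75th percentile were fitted with limma 3.58.1 in R 4.3.3 (lmFit, eBayes; 4 group means, 8 arrays) for every probe well above background on both arrays of a group, with Benjamini-Hochberg adjustment and a threshold of 0.05. The fit was tested on simulated data. Values after ± are standard errors. In each pathway list and comparison, up to 3 genes a direction past the threshold were named by size, or else the smallest p; some are not reported here. Alternatives were the scanner-file samples, the value table, normexp (offset 50) on the median signals in place of the mean signals planned, quantile or median scaling, other filters, 1 probe per gene, a replicate block, and fewer arrays. The number of arrays limits the precision.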

Additional observations from a re-analysis of the deposited data

How the results depend on the processing

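Of 84 member results 34 had a 95% interval that excluded 0, and 560 of their 564 alternative values kept their direction. The 4 that reversed were KI against WT at 1 week with the samples of the scanner files for Nrg1 A_52_P369769 (-0.42), Nrg1 A_52_P158772 (-0.02) and Hbegf (-0.20), and under normexp correction for Nrg1 A_52_P158772 (-0.04); the cause was not tested. Calls were lost in 68 and gained in 8 of these values. Other filters, 1 probe per gene and leaving out an array outside a comparison cannot alter an estimate. The 34 results were also picked for an interval that excluded 0. The tally of kept directions was thus partly fixed in advance and does not measure robustness. The labels do not tie replicate numbers to shared animals, and same-numbered arrays correlated at -0.14 to 0.22 in their deviations, so the numbers were not taken as pairs. With the replicate block, the counts of called probes were 0 at birth and 2 at 1 week for genotype; Nrg1 A_52_P369769 was then called in KI with age (adjusted p = 0.0235) and A_55_P1985433 was not (0.0685).

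Counts over all probes moved as follows. For KI against WT at birth (2 called) they were 0 with the scanner-file samples, no filter, the strictest filter or only the arrays compared, 4 with normexp, and 6 with median scaling or 1 probe per gene, and 0 to 89 leaving out 1 array. At 1 week (5 called) they were 3 with the scanner-file samples, 2 with quantile normalization or no filter, 1 with the strictest filter, 8 with median scaling or 1 probe per gene, 0 with only the arrays compared, and 0 to 153 leaving out 1 array. The interaction (0 called) gave 1 with normexp, the strictest filter or 1 probe per gene, and 45 to 79 leaving out 1 array. Over both ages KI against WT (11 called) gave 2 with the scanner-file samples, 22 with normexp, 7 with the strictest filter and 40 to 122 leaving out 1 array. For age in WT (4828 called) they were 3116 with the scanner-file samples, 2493 with no filter, 2988 with 1 probe per gene, 2341 with only the arrays compared and 1440 to 8724 leaving out 1 array; in KI (2211 called) 3612, 1138 with no filter, and 674 to 2765; over both genotypes (8124 called) 4608 with 1 probe per gene, and 4462 to 11186. A lone array left in a group was assumed to vary like the other groups. Erbb3, Erbb4, Nrg2 and Nrg4 lay at or near background, which limits what can be said of them.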
